A study of Homo sapiens with 6 samples.

Results

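The interleukin 6 (IL6) family of cytokines and the JAK-STAT3 route by which it signals were examined through 10 genes, picked by symbol from the 26364 gene symbols with deposited values. They are the ligands IL6, IL11 and LIF, the receptor chains IL6R, IL6ST, OSMR and LIFR, the kinase JAK1, the transcription factor STAT3 and the feedback inhibitor SOCS3. Expression was measured by RNAseq in 6 samples of A673/TR/shEF, a derivative of the Ewing sarcoma line A673 which carries a repressor that responds to tetracyclines together with an shRNA directed at the EWSR1::FLI1 chimeric mRNA. The 3 EWSR1::FLI1 high samples were left untreated, and the 3 EWSR1::FLI1 low samples received doxycycline at 1 µg/mL for 72 h. All 6 samples carry the repressor and the shRNA, and doxycycline was given to the EWSR1::FLI1 low samples alone, so an action of the antibiotic and one of the knockdown cannot be told apart. The samples of a condition are described both as independent clones and as numbered experiments, and the p-values cover the spread between these samples, whatever its source.

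Cytokines of the IL6 family are secreted proteins that bind to receptor complexes built around IL6ST (gp130), the chain that carries the signal. IL6 and IL11 are first bound by their own receptor chains, IL6R and IL11RA, whereas LIF and oncostatin M recruit LIFR or OSMR beside IL6ST. Janus kinases on the receptor tails then phosphorylate STAT3, which enters the nucleus and activates genes that include SOCS3, whose product binds IL6ST and the kinases and shuts the signal off.

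Between 6980361 and 16658933 reads lay on genes in each library. FLI1, whose 3′ part belongs to the targeted fusion, was at 11.3, 12.7 and 14.2 FPKM (fragments per kilobase of gene, scaled by depth) without doxycycline, and at 2.91, 4.29 and 3.68 FPKM with doxycycline. Here and below, 3 values of a group are listed in the order of replicates 1, 2 and 3. The 8 Ewing sarcoma markers examined were CD99, NR0B1, NKX2-2, STEAP1, PRKCB, LIPI, FLI1 itself and EWSR1, the partner of FLI1 in the fusion. All 8 were detected in every library. Their summed level was 682 to 721 FPKM in EWSR1::FLI1 high and 235 to 266 FPKM in EWSR1::FLI1 low libraries. Each of the 8 was lower in all low than in all high libraries, beside 23.6% of all 15504 genes tested. Of the 8, 6, FLI1 included, were called lower (limma, adjusted p under 0.01), beside 3.37% of all genes tested. EWSR1 was not called (adjusted p = 0.159). The summed level of 6 leukocyte markers was 8.04 to 12.4 FPKM in EWSR1::FLI1 high and 7.36 to 20.6 FPKM in EWSR1::FLI1 low libraries. Most of it was CD68, a lysosomal protein that is not restricted to leukocytes, whereas PTPRC stayed at or below 0.67 FPKM and CD14 was listed at 0 in EWSR1::FLI1 high replicate 3. The sums of 4 epithelial markers were 2.72 to 3.58 and 3.02 to 4.90 FPKM, and those of 3 endothelial markers 0.614 to 0.806 and 1.12 to 2.17 FPKM, in the same order of groups. The part of other cell types in the results was not tested. As RNA was taken from whole cultures, fewer cells that express a gene and less of its RNA per cell cannot be told apart. One library stood apart. In EWSR1::FLI1 low replicate 1, 18080 genes reached 0.5 FPKM, against 14205 to 15471 in the other libraries, and the FPKM values summed to 255956, against 334614 to 366060. For several genes, though not for all, results are therefore also given without it.

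Of the 10 members, 3 were called higher upon EWSR1::FLI1 knockdown, namely LIF, OSMR and SOCS3, and 0 were called lower. A gene was called at an adjusted p under 0.01 (limma on log2(FPKM + 1)), which held for 7.88% of the 15504 genes tested, 4.51% higher and 3.37% lower. All 10 members passed the filter of a mean of 0.5 FPKM, but LIF and IL6 passed only through the EWSR1::FLI1 low libraries, so their passing already required a difference. The 3 EWSR1::FLI1 low libraries lay above the 3 EWSR1::FLI1 high libraries for 6 members, and below them for 1, JAK1. Over all genes tested, the low libraries lay above the high ones for 17.5% and below them for 23.6%. Differences are given below on the log2(FPKM + 1) scale, EWSR1::FLI1 low minus high, on which the change of a gene at low FPKM appears smaller than it is. With 3 libraries against 3, an exact permutation test of a single gene cannot go below p = 0.1 (two-sided), and each of the 7 members whose groups did not overlap reached that value. The medians of the differences were 1.42 for the members and -0.05 for all genes tested.

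**Figure D1:**
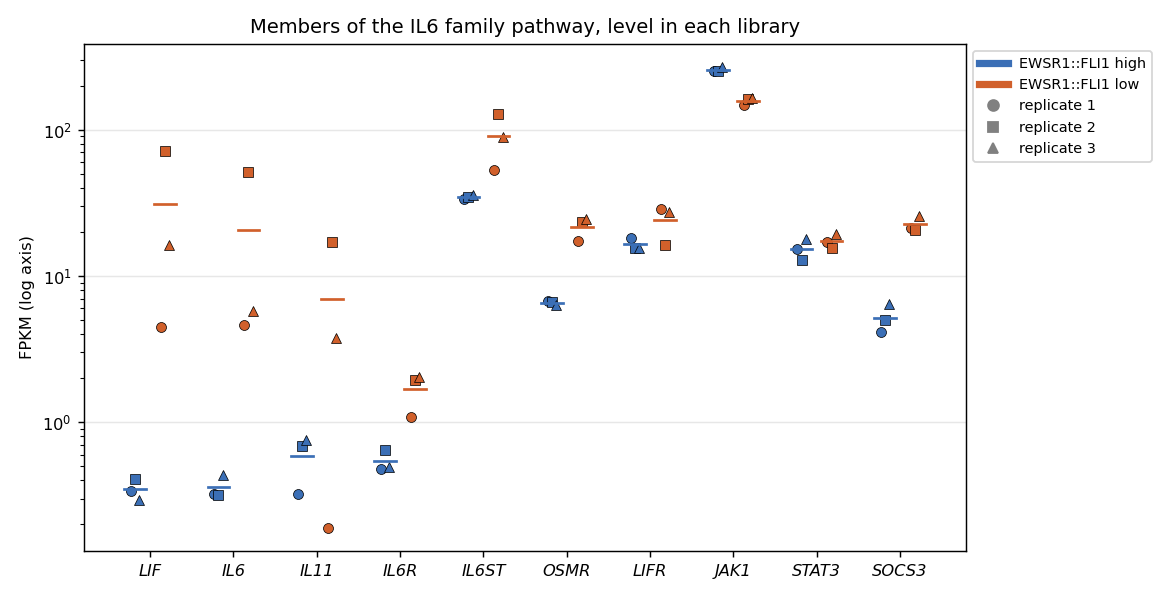
Level of each member in each of the 6 libraries (FPKM, log axis). Points are libraries, their shape marks the replicate number, and horizontal bars are group means of 3 libraries. LIF and IL6 lie under 0.5 FPKM without doxycycline and above 4 FPKM with it, the EWSR1::FLI1 low libraries differ widely for the 3 ligands, and the groups overlap for IL11, LIFR and STAT3.

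The sequences before the start sites of IL6, IL11 and OSMR are printed, and each holds letters that were searched for. RefSeq windows (GRCh38.p14) from 250 bases before to 50 bases after a start were available for 9 of the 10 members, 14 windows in all, since several members have more than 1 start; LIF has no window here. Both strands were searched for TTCNNNGAA (STAT factors), TGANTCA (AP-1), GGG and TTTCC with any 2 bases between them (NF-kappaB) and GGAAGGAA, which holds 2 ETS cores side by side, ETS being the family of FLI1. Of all 35116 windows, 7.66%, 7.71%, 1.91% and 3.67% hold them. Capitals below mark the matches on either strand within the 250 bases before the start, printed 5′ to 3′ on the strand of the gene. The stretches are chr7:22726950-22727199 (plus strand), chr19:55370464-55370713 (minus strand) and chr5:38845762-38846011 (plus strand).
IL6: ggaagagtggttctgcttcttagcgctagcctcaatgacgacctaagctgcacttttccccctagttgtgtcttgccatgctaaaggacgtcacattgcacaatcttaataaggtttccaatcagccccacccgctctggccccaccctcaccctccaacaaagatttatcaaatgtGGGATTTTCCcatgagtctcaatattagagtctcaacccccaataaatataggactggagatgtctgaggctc
IL11: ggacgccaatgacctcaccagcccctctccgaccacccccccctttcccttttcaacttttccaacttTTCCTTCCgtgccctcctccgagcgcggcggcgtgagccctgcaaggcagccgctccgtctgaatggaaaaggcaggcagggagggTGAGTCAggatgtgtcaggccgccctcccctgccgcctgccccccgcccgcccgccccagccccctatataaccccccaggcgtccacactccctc
OSMR: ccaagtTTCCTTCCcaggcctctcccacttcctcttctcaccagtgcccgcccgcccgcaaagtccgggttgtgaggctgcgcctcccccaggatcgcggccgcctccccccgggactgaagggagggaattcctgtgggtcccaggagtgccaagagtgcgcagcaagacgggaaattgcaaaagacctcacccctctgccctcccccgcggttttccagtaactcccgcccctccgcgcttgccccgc

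In IL6 the NF-kappaB letters stood at -73 to -64, counted from the start. In IL11 the AP-1 letters stood at -96 to -90, and the paired ETS cores lay at -182 to -175 on the opposite strand. In OSMR paired ETS cores were found at -244 to -237 on the opposite strand, and AP-1 letters just inside the transcript, as also in IL6R. STAT letters were present in 2 of the 3 LIFR windows. The windows of IL6ST, JAK1, STAT3 and SOCS3 held none of the 4 motifs, which says only that these letters are not in these stretches. Binding was not measured in these samples.

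LIF, the leukemia inhibitory factor, acts through LIFR and IL6ST and is best known for holding mouse embryonic stem cells undifferentiated. LIF (ENSG00000128342, minus strand of chromosome 22, 30636442 to 30642748, GRCh37) was at 0.336, 0.411 and 0.293 FPKM without doxycycline, and at 4.48, 72.1 and 16.3 FPKM with doxycycline. All low libraries were above all high libraries, and they differed among themselves far more than the high libraries did. The values rested on 14, 13 and 9 reads without doxycycline and on 158, 2347 and 1008 reads with it. Per unit of sequencing depth, the summed reads were 78.3 times higher in EWSR1::FLI1 low cells (95% exact interval 56.4 to 112, counting error only). Without low replicate 2, which held most of these reads, the ratio was 34.7 (24.9 to 49.8). The difference was 3.82 (standard error 0.74, adjusted p = 0.00844). This call was near the threshold. It was lost without EWSR1::FLI1 high replicate 1, 2 or 3 (adjusted p = 0.0197, 0.0316 and 0.0366) and without EWSR1::FLI1 low replicate 3 (0.0322), while the difference ranged from 2.85 (without low replicate 2) to 4.72 (without low replicate 1).

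IL6 is a cytokine of inflammation and the acute phase response. IL6 (ENSG00000136244, plus strand of chromosome 7, 22765503 to 22771621) was at 0.322, 0.318 and 0.436 FPKM without doxycycline, and at 4.65, 51.3 and 5.80 FPKM with doxycycline. The groups did not overlap, and low replicate 2 was far above the other low libraries. Without doxycycline only 4, 3 and 4 reads lay on the gene, about the 3 reads taken as the floor of detection (0.163 to 0.327 FPKM), against 49, 498 and 107 reads with doxycycline. The ratio of summed reads at equal depth was 47.7 (95% exact interval 26.5 to 96.0, counting error only). It rested largely on low replicate 2, being 15.2 without that library and 76.3 without low replicate 3. The difference of 3.22 (standard error 0.70, 95% interval 1.62 to 4.81) did not reach the threshold (adjusted p = 0.0144). It did so without EWSR1::FLI1 low replicate 1 (3.80, adjusted p = 0.00521) and without low replicate 2 (2.19, adjusted p = 0.000167), and with all 6 libraries at a pseudocount of 0.1 (4.63, adjusted p = 0.00355). In all, 4 of the 14 alternative fits called IL6. The adjusted p rose to 0.051 without EWSR1::FLI1 high replicate 3 and to 0.0658 on recovered reads with limma-voom. STEAP1B overlaps IL6 on the opposite strand and was at 20.3 to 25.2 FPKM over the 6 libraries. Whether reads were counted by strand is not given in the sources used here.

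IL11, the ligand of IL11RA, is known for effects on platelet precursors, bone and fibrosis. IL11 (ENSG00000095752, minus strand of chromosome 19, 55875750 to 55881831) was at 0.321, 0.686 and 0.76 FPKM without doxycycline and at 0.189, 17.0 and 3.78 FPKM with doxycycline. The groups overlapped, since low replicate 1, with 4 reads, was below every high library, while low replicates 2 and 3 were above all of them with 331 and 140 reads. The difference was 1.57 (95% interval -0.19 to 3.33, adjusted p = 0.191). Leaving out EWSR1::FLI1 low replicate 1 gave 2.56 (adjusted p = 0.00564), and leaving out low replicate 2 gave 0.60 (adjusted p = 0.456).

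Of the 8 other ligands and ligand partners of the family, 4 could be tested and 0 were called in either direction. OSM, which encodes oncostatin M, did not exceed 0.303 FPKM in any library, and CNTF, IL27 and IL31 also stayed under the filter. CLCF1, a ligand of the ciliary neurotrophic factor receptor, was at 0.531, 0.954 and 1.96 FPKM without doxycycline and 1.54, 8.40 and 6.08 FPKM with doxycycline (difference 1.42, adjusted p = 0.0568). Its groups overlapped.

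OSMR was the receptor chain with the clearest change. OSMR, the oncostatin M receptor (ENSG00000145623, plus strand of chromosome 5, 38845960 to 38945698), was at 6.71, 6.61 and 6.36 FPKM without doxycycline, and at 17.2, 23.5 and 24.5 FPKM with doxycycline. The groups were well apart and the libraries of each were close together. Means were 6.56 ± 0.18 and 21.7 ± 3.92 FPKM (SD, n = 3 in each group), a ratio of 3.31. The difference was 1.57 (standard error 0.19, adjusted p = 0.000779), and it was called in each of the 14 alternative fits, with an adjusted p of at most 0.0075. RICTOR, which overlaps OSMR on the opposite strand, was at 10.5 to 14.4 FPKM over the 6 libraries.

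IL6ST, the shared signalling chain gp130 (ENSG00000134352, minus strand of chromosome 5, 55230923 to 55290850), was at 33.6, 34.5 and 35.6 FPKM without doxycycline, and at 53.5, 128 and 89.0 FPKM with doxycycline. The high libraries were nearly equal, and every low library was above them. The ratio of means was 2.61. The difference of 1.27 (standard error 0.29, 95% interval 0.61 to 1.93) did not pass the threshold (adjusted p = 0.0173), but did so without EWSR1::FLI1 low replicate 1 (1.60, adjusted p = 0.00039). It was called in 4 of the 14 alternative fits, over which the adjusted p reached 0.0663.

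IL6R, the chain that binds IL6 itself (ENSG00000160712, plus strand of chromosome 1, 154377669 to 154441926), had low values throughout, with 0.479, 0.65 and 0.492 FPKM without doxycycline and 1.08, 1.93 and 2.02 FPKM with doxycycline. The groups did not overlap, on 25 to 34 reads and 63 to 207 reads per library. The difference was 0.78 (95% interval 0.35 to 1.21, adjusted p = 0.0225), and 0.95 with an adjusted p of 0.0029 without EWSR1::FLI1 low replicate 1. ADAM10 and ADAM17, proteases that release IL6R from the cell surface, were not called (differences 0.56 and 0.28, adjusted p = 0.0868 and 0.487).

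LIFR, the receptor chain for LIF (ENSG00000113594, minus strand of chromosome 5, 38474770 to 38608456), was at 18.2, 15.6 and 15.5 FPKM without doxycycline, and at 28.6, 16.3 and 27.3 FPKM with doxycycline. Low replicate 2, which held the most LIF, lay within the range of the high libraries, so the groups overlapped. The difference of 0.49 was not called (95% interval -0.05 to 1.02, adjusted p = 0.182), and it was called in 0 of the 14 alternative fits (adjusted p from 0.0553 to 0.389). Of the 4 other receptors of the family, 3 could be tested and 0 were called. IL11RA, the partner of IL11, was at 1.24 to 3.71 FPKM in the high and 1.60 to 7.21 FPKM in the low libraries, with EWSR1::FLI1 low replicate 1 highest. In order of mean level per length without doxycycline, the chains ran IL6ST, LIFR, OSMR and IL6R, with no overlap between neighbours. With doxycycline IL6ST was still first and IL6R last, while LIFR and OSMR overlapped.

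**Figure D2:**
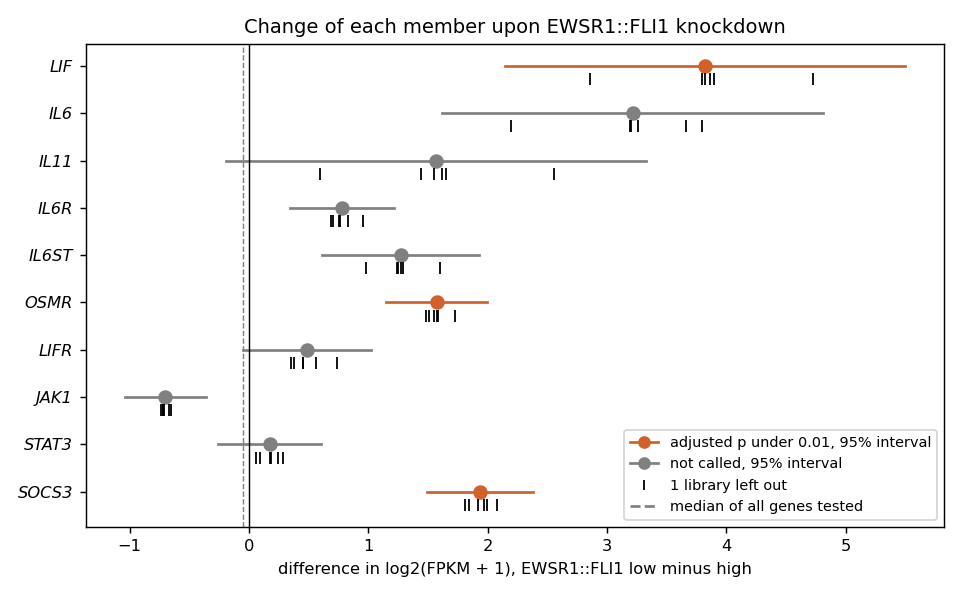
Difference in log2(FPKM + 1) of each member, EWSR1::FLI1 low minus high, with its 95% interval (limma, 3 libraries in each group). Black ticks are the same difference with 1 library left out, and the dashed line is the median of all genes tested, -0.05. OSMR and SOCS3 have narrow intervals above 1, whereas those of LIF, IL6 and IL11 are wide.

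JAK1, the kinase that is joined to IL6ST (ENSG00000162434, minus strand of chromosome 1, 65298906 to 65533437), had the highest level of all members in both groups. It was at 254, 251 and 269 FPKM without doxycycline and at 147, 162 and 166 FPKM with doxycycline. Each low library was below each high library, and the libraries of a group were close to each other. Mean levels were 258 ± 9.38 and 158 ± 9.85 FPKM (SD, n = 3 in each group), 1.63 times higher in EWSR1::FLI1 high cells. The difference of -0.70 (standard error 0.15, 95% interval -1.04 to -0.36) was just short of the threshold (adjusted p = 0.0129). It was called without EWSR1::FLI1 low replicate 1 (-0.65, adjusted p = 0.00281), with the filter at a mean of 1 FPKM (adjusted p = 0.00995) and on recovered reads with limma-voom (-0.64, adjusted p = 0.00164). These were 3 of the 14 alternative fits, over which the adjusted p reached 0.0781. RAVER2, which overlaps JAK1 on the opposite strand, was at 20.6 to 25.7 FPKM in the high and 8.39 to 14.1 FPKM in the low libraries. JAK2 and TYK2, the other Janus kinases that could be tested, were not called (differences 0.34 and 0.01, adjusted p = 0.335 and 0.985). JAK3, a kinase of lymphoid cells, did not exceed 0.47 FPKM.

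STAT3, the transcription factor of the pathway (ENSG00000168610, minus strand of chromosome 17, 40465342 to 40540558), was at 15.2, 12.8 and 17.8 FPKM without doxycycline and at 17.0, 15.5 and 19.3 FPKM with doxycycline. The groups overlapped. The difference was 0.17 (adjusted p = 0.567), and its 95% interval from -0.26 to 0.61 leaves room for a modest change in either direction. Its mRNA level does not report the phosphorylation by which the protein is activated, which was not measured here. Of the 6 other STAT factors, 5 could be tested and only STAT2 was called, beside 7.88% of all genes tested. STAT2, a factor of the interferon response, rose from 7.12, 5.76 and 6.41 FPKM in the high to 14.6, 13.5 and 14.5 FPKM in the low replicates (difference 1.03, adjusted p = 0.00331). That call was lost without EWSR1::FLI1 high replicate 1, 2 or 3 (adjusted p = 0.0166, 0.0282 and 0.0232).

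SOCS3, the feedback inhibitor that STAT3 activates, had the smallest adjusted p of the members. SOCS3 (ENSG00000184557, minus strand of chromosome 17, 76352859 to 76356158) was at 4.14, 5.0 and 6.41 FPKM without doxycycline and at 21.4, 20.5 and 25.6 FPKM with doxycycline. All low libraries were above all high libraries, and unlike those of the ligands the low values were alike. Mean levels were 5.18 ± 1.15 and 22.5 ± 2.68 FPKM (SD, n = 3 in each group), a ratio of 4.34. The difference was 1.94 (standard error 0.20, adjusted p = 0.00037), and the call held in each of the 14 alternative fits (adjusted p at most 0.00397).

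Of 18 other inhibitors of the pathway, 15 could be tested, of which 1 rose and 1 fell, beside 4.51% and 3.37% of all genes tested. The low libraries lay above the high ones for 1 of the 15 and below them for 5, beside 17.5% and 23.6% of all genes tested. SOCS1, a relative of SOCS3 that blocks Janus kinases directly, rose from 0.470, 0.619 and 0.531 FPKM to 1.76, 2.21 and 2.11 FPKM (difference 0.97, adjusted p = 0.00355), on 5 or 6 reads per library without doxycycline. PIAS2, a SUMO ligase of the family of protein inhibitors of activated STAT, fell from 22.1, 20.7 and 21.0 FPKM to 9.32, 9.68 and 13.2 FPKM (difference -0.94, adjusted p = 0.00948). Neither call held in all 6 fits with 1 library left out. Of these fits, SOCS1 was called only in that without EWSR1::FLI1 low replicate 1, and PIAS2 only in those without low replicate 1 or 3. Their adjusted p was at most 0.0217 and 0.0529 over the 6 fits. The differences changed little, from 0.93 to 1.04 for SOCS1 and from -1.08 to -0.86 for PIAS2. The phosphatases PTPN1, PTPN2 and PTPN11, which act on kinases and STAT factors, were not called (differences 0.10, -0.30 and -0.34).

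Genes that STAT3 is known to activate were read from a list of 28, all of which could be tested. In it 7 rose and 1 fell, beside 4.51% and 3.37% of all genes tested, and 20 were not called. The low libraries lay above the high ones for 12 of the 28 and below them for 1, beside 17.5% and 23.6% of all genes tested. The median difference was 0.70, beside -0.05 for all genes tested. Most genes of this list also answer to other transcription factors. The largest differences among the 7 were those of NNMT, a methyltransferase of nicotinamide, and FGL2, a secreted protein related to fibrinogen. NNMT was at 0.423, 0.318 and 0.491 FPKM without and at 3.28, 21.7 and 13.3 FPKM with doxycycline (difference 2.98, adjusted p = 0.00447). FGL2 was at 0.402, 0.412 and 0.302 FPKM without and at 7.93, 9.94 and 9.92 FPKM with doxycycline (difference 2.90, adjusted p = 2.88e-05). FGL2 thus varied little among the low libraries, whereas NNMT followed the unequal course of LIF. Both lay under 0.5 FPKM in every high library and could be tested only because of their level in the low ones.

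CEBPD, a transcription factor of the acute phase response, rose from 4.42, 4.91 and 5.99 FPKM to 27.1, 34.1 and 25.2 FPKM (difference 2.29, adjusted p = 0.000184). PIM1, a serine/threonine kinase that promotes survival, rose from 4.19, 4.03 and 4.57 FPKM to 12.8, 43.3 and 19.6 FPKM (difference 2.15, adjusted p = 0.00471). CCL2, a chemokine that attracts monocytes, rose from 94.5, 51.6 and 47.5 FPKM to 154, 374 and 209 FPKM (difference 1.88, adjusted p = 0.00797). The groups of all 3 were apart. HGF, the ligand of the MET receptor, rose by a difference of 1.74 (adjusted p = 0.000622), and IRF9 by 1.36 (adjusted p = 0.0015). CCND1, which encodes the cell cycle regulator cyclin D1, was the gene of the list that fell, from 394, 375 and 387 FPKM to 70.8, 141 and 116 FPKM (difference -1.87, adjusted p = 0.00123). Calls of NNMT and PIM1 were lost without EWSR1::FLI1 high replicate 1, 2 or 3 or low replicate 3 (adjusted p at most 0.0243 and 0.0237), and that of CCL2 without high replicate 2 or 3 or low replicate 2 or 3 (at most 0.0417). The call of IRF9 was lost without EWSR1::FLI1 high replicate 2 (0.013).

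Other targets of STAT3 were not called. JUNB, MYC, MCL1, BCL2L1 and VEGFA had differences from -0.32 to 0.71 with adjusted p from 0.183 to 0.782. BCL3 was at 0.74 to 1.18 FPKM in all 6 libraries (difference 0.09, adjusted p = 0.738). IRF1, a target shared with interferon signalling, was at 2.23, 2.44 and 2.76 FPKM in the high and at 5.13, 16.9 and 8.58 FPKM in the low replicates (difference 1.55, adjusted p = 0.014), and its groups did not overlap.

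The acute phase genes, which IL6 induces in the liver, gave the largest differences of all the lists. Of the 4 genes that could be tested, 2 rose, beside 4.51% of all genes tested. A2M, the protease inhibitor alpha-2-macroglobulin, was at 0.983, 1.24 and 1.39 FPKM without doxycycline and at 42.7, 39.9 and 31.8 FPKM with doxycycline (difference 4.14, adjusted p = 8.47e-06). SERPINA3, the antichymotrypsin, was at 0.120, 0.552 and 0.325 FPKM without and at 11.7, 54.1 and 14.3 FPKM with doxycycline (difference 4.06, adjusted p = 0.000748), on 2, 7 and 4 reads without it. Both calls held without any single library, but SERPINA3, with a mean of 0.332 FPKM without doxycycline, passed the filter only through the low libraries. SERPINA3 was highest in the library that was highest in LIF and IL6, and A2M was not. The 10 genes under the filter, which include CRP, SAA1, SAA2 and the 3 fibrinogen chains FGA, FGB and FGG, did not exceed 1.12 FPKM in any library.

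**Figure D3:**
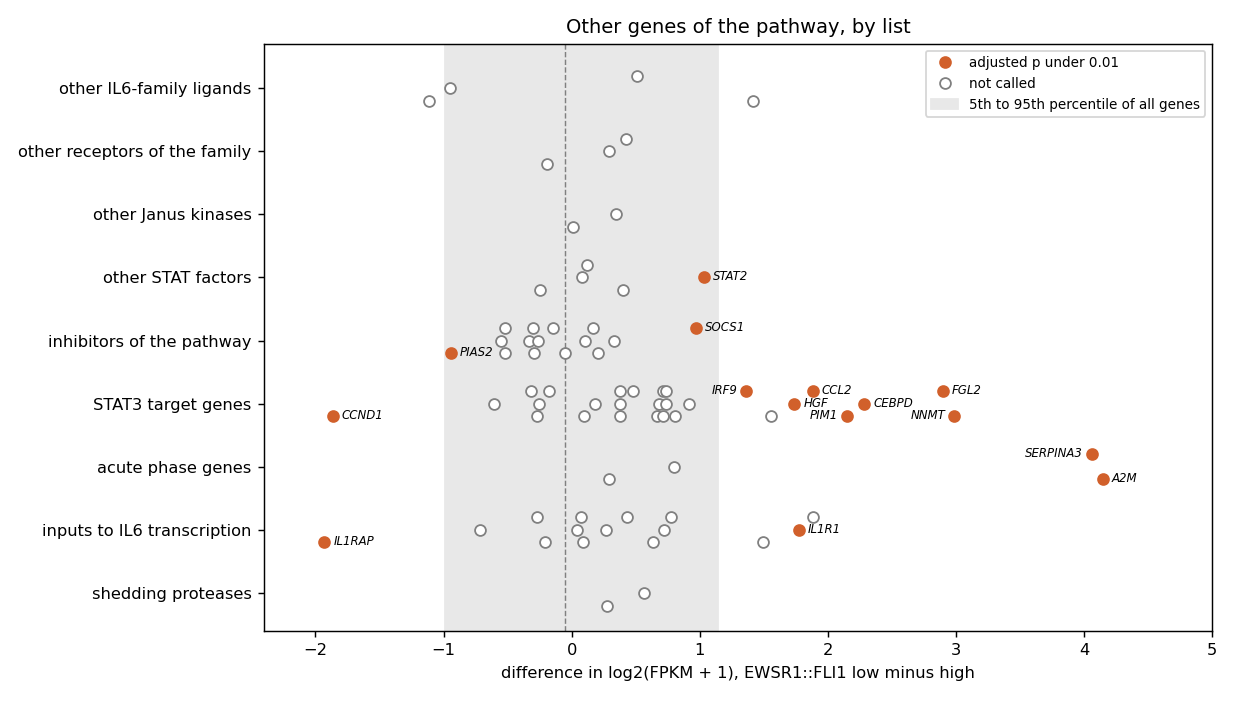
Difference in log2(FPKM + 1), EWSR1::FLI1 low minus high, of the 78 genes of the pathway lists that could be tested. Filled points were called at an adjusted p under 0.01 and are named, and the grey band runs from the 5th to the 95th percentile of all 15504 genes tested (-0.99 to 1.14). A2M and SERPINA3 lie farthest to the right, and CCND1 and IL1RAP farthest to the left.

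Signals that induce IL6 and LIF in many cells, those of IL1, TNF and NF-kappaB, were read from a list of 16 genes. Of the 15 tested, 1 rose and 1 fell, beside 4.51% and 3.37% of all genes tested. IL1R1, the receptor that transmits the IL1 signal, rose from 0.718, 0.803 and 0.754 FPKM to 4.38, 5.26 and 5.42 FPKM (difference 1.77, adjusted p = 0.000207). IL1RAP, the accessory chain that IL1R1 needs in order to signal, fell from 76.7, 81.7 and 86.5 FPKM to 18.8, 20.8 and 22.5 FPKM (difference -1.93, adjusted p = 0.000212). The call of each held without any single library. IL1B was at 12.5, 12.2 and 7.76 FPKM in the high and at 18.5, 149 and 25.8 FPKM in the low replicates (difference 1.88, adjusted p = 0.073), and IL1A at 20.4 to 31.5 and 19.6 to 86.1 FPKM (difference 0.63, adjusted p = 0.365). NFKB1, RELA and NFKBIA had differences of 0.43, 0.09 and -0.27 and were not called. TNF did not exceed 0.51 FPKM.

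Over all the lists of other pathway genes, 78 of 99 could be tested, and 12 rose and 3 fell. These counts stand beside 4.51% and 3.37% of all genes tested. Among the genes that rose, NNMT, FGL2 and SERPINA3 passed the filter only through the low libraries, so their passing already required a difference. The lists were also chosen with earlier results of these data known. The groups did not overlap for 33 of the 78, 25 with the low libraries above and 8 with them below the high libraries, beside 17.5% and 23.6% of all genes tested. The median difference of the 78 was 0.31.

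The EWSR1::FLI1 low libraries were more unequal in the ligands than in the other members. Between the lowest and the highest of the 3 low libraries, LIF differed 16.1-fold, IL6 11.0-fold and IL11 89.7-fold. Of 15171 genes that were tested and above 0 in all low libraries, 99.8% had a smaller ratio than LIF and 99.4% a smaller one than IL6, and IL11 had the largest of them all. The ratio was 2.40 for IL6ST, 1.87 for IL6R and 1.75 for LIFR, above those of 81.1%, 64.7% and 57.7% of the genes. It was 1.42 for OSMR, 1.25 for STAT3, 1.24 for SOCS3 and 1.13 for JAK1, above those of 28.7%, 12.7%, 12.3% and 3.61%. Replicate 2 was highest in LIF, IL6, IL11 and IL6ST, where it reached 208, 143, 28.8 and 3.70 times the mean of the high libraries. In SOCS3 the same library was the lowest of the 3, at 3.96 times that mean, against 4.13 in replicate 1 and 4.93 in replicate 3. FLI1 was also highest in low replicate 2, at 4.29 FPKM, and lowest in low replicate 1, at 2.91 FPKM. Depth was 6980361, 8570957 and 16658933 reads in low replicates 1, 2 and 3. The part of these differences between libraries in the unequal ligand levels was not tested.

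**Figure D4:**
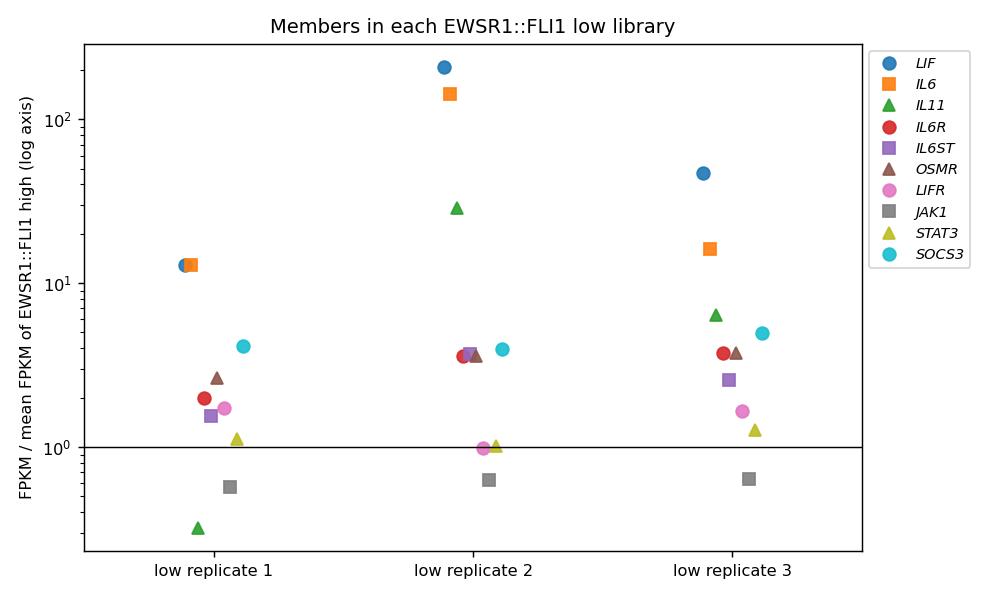
FPKM of each member in each EWSR1::FLI1 low library, divided by its mean over the 3 EWSR1::FLI1 high libraries (log axis; the line at 1 is that mean). LIF reaches 12.9, 208 and 47.0 times the mean in replicates 1, 2 and 3, whereas SOCS3 stays between 3.96 and 4.93 and JAK1 between 0.57 and 0.64.

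The profile of LIF, the called member with the largest difference, was most closely followed over the 6 libraries by DSP, OPTN, MICAL2, UGGT2 and LIPG, with Pearson's r between 0.998 and 0.999 on log2(FPKM + 1). This is a description over 6 points that share their groups and the order of the low libraries. Like LIF, MICAL2 and LIPG lay under 0.5 FPKM in every high library. They passed the filter only through the low ones, so their passing already required a difference. DSP, which encodes the junction protein desmoplakin, was at 1.06, 1.12 and 1.11 FPKM in the high and at 4.08, 28.1 and 11.0 FPKM in the low replicates. Its difference was 2.53 (adjusted p = 0.01, just above the threshold), and OPTN, MICAL2, UGGT2 and LIPG were not called either (adjusted p from 0.0141 to 0.0592).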

How the data were processed

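RNAseq libraries of 3 EWSR1::FLI1 high and 3 EWSR1::FLI1 low samples were grouped and numbered by their titles. The authors aligned paired-end reads to GRCh37 with STAR (2.5.0b, per the processing notes), named Cufflinks 2.2.1 for abundance, and deposited 1 FPKM value for each gene symbol in each library. They also deposited a DESeq2 (1.6.3) table, of which only the mean signal per gene (the authors' mean normalized count) was used. Its fold changes and p-values, the authors' own comparison, were not. FPKM multiplied by the ratio of this mean to the mean FPKM gave whole reads for 100% of values (tolerance 0.1 reads), hence the reads per gene and a floor of 3 reads. Size factors were 0.829 to 1.67, so the FPKM were already scaled between libraries.

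Genes with a mean of at least 0.5 FPKM were tested with limma 3.58.1 in R 4.3.3 (lmFit, eBayes with trend) on log2(FPKM + 1), with a pseudocount of 1 and Benjamini-Hochberg adjustment over 15504 genes. The script was first tested on simulated data. Replicate pairs differed by more than sampling noise (chi-square per degree of freedom 4.25 to 31.5). Ratios of summed reads carry exact binomial intervals. Genes named are the 10 members, called genes of the lists, FLI1, and the 5 profiles most like the called member with the largest change; uncalled list genes and overlapping genes were chosen after their values were seen. Members and lists were chosen with earlier results of these data known. Gene coordinates are those of GENCODE v44 on GRCh37. Python 3.11.15, pandas 2.3.3, scipy 1.17.1 and matplotlib 3.10.9 were used.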

Additional observations from a re-analysis of the deposited data

How the results depend on the processing

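The 10 members, the 15 called genes of the lists, FLI1 and EWSR1 (27 genes) kept their direction in all 14 alternative fits, which was not tallied for the uncalled genes of the lists. Changing the filter, dropping the eBayes trend or adding a replicate block leaves each difference as it was. In these fits only the call could change, not the direction. Of the 378 values of the 27 genes, 327 stayed on their side of the threshold, 37 lost a call and 14 gained one. The 3 calls among the members became 4 with a pseudocount of 0.1 (IL6 added) and with the filter at a mean of 1 FPKM (JAK1 added), 5 with a replicate block (IL6 and IL6ST added) and 5 with limma-voom on recovered reads, which added IL6R, IL6ST and JAK1 and dropped LIF (adjusted p = 0.0436). They ranged from 2 to 8 when 1 library was left out, with 8 without EWSR1::FLI1 low replicate 1. LIF was also not called without a filter (0.0229) or with quantile normalization (0.0131). Whether the replicate numbers pair the samples is not settled by these values. Deviations of same-numbered libraries correlated with r = 0.27, 0.09 and 0.12, and those of different numbers with r from -0.29 to 0.19. Each low library correlated best with its own number except low replicate 2. The block changed no other call among the members. Calls among the pathway lists numbered 15, and 8 (without EWSR1::FLI1 high replicate 2) to 26 (without low replicate 1) with 1 library left out. Over all genes, 1222 calls became 753 without a filter, 1702 with a replicate block, 1992 with quantile normalization and 2381 with limma-voom. They ranged from 484 to 2370 with 1 library left out. Median-ratio scaling gave the same factor in every library. That fit thus nearly repeats the main one (SOCS3 1.933 against 1.936) and is no separate check, though it is counted among the 14. The ratios of summed reads without a low library were computed after seeing the data. The causes were not tested. Depth limits IL6, IL11 and LIF without doxycycline, where 3 to 14 reads lay on each gene.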

Other observations

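Beside the members, the lists of other genes also differed among the EWSR1::FLI1 low libraries. This was looked at after the values were seen. Low replicate 2 was the highest of the 3 low libraries for 13 of the 15 tested genes of the IL1, TNF and NF-kappaB list and for 22 of the 28 STAT3 targets, while over all genes tested it was the highest for 26.2%, and over the 700 genes called higher for 46.0%. In the lists of acute phase genes and other receptors it was the highest for 2 of 4 and 1 of 3 tested genes. Low replicate 1 was the lowest for 14 of the 15 and for 23 of the 28, against 57.0% of all genes tested and 59.6% of those called higher. For IL1B the 3 low libraries were at 18.5, 149 and 25.8 FPKM, for ICAM1, an adhesion molecule induced by NF-kappaB, at 7.28, 49.6 and 11.2 FPKM, and for TNFAIP3, a feedback inhibitor of NF-kappaB, at 7.14, 37.4 and 16.3 FPKM. In EWSR1::FLI1 high libraries the same genes were at 7.76 to 12.5, 8.19 to 10.3 and 8.47 to 10.6 FPKM. In low replicate 1, ICAM1 and TNFAIP3 were thus below every high library. None of the 3 was called (adjusted p = 0.073, 0.391 and 0.311).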
